A study of Cyanidioschyzon merolae with 29 samples.

Results

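GINS is a ring-shaped protein complex of the eukaryotic replisome, made of the subunits Psf1, Psf2, Psf3 and Sld5. In yeast and animals it joins CDC45 and the MCM ring, which is loaded on replication origins before S phase, and the 3 together form the helicase that unwinds DNA ahead of the replication fork. In yeast, GINS also links this helicase to DNA polymerase epsilon, which copies the leading strand. Genes of this machinery are known for expression that peaks around the start of DNA synthesis in dividing cells. *Cyanidioschyzon merolae* is a single-celled red alga of hot acidic springs with a small nuclear genome.

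The genes examined were the 4 loci that the study assigns to GINS, out of 4984 loci in the table of counts. Psf1 is *CMR136C* (chromosome 18, positions 351139 to 351777, coding length 639 bases), Psf2 is *CMQ381C* (chromosome 17, 987415 to 988041, 627 bases), Psf3 is *CMP212C* (chromosome 16, 527276 to 528886, 1611 bases) and Sld5 is *CMR406C* (chromosome 18, 991908 to 992606, 699 bases). Positions and lengths are those of RefSeq for ASM9120v1, the assembly of strain 10D. Psf2 and Sld5 carry these names in the description column of the deposited table, whereas Psf1 and Psf3 have no description there and are named by the study only. All 4 loci passed the filter on low counts, as did 4796 of the 4984 loci, and so all 4 were tested.

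The cells were strain NIES-3377, wild type, with no transgene or deletion in any group, grown hot, in acidic medium and under continuous light. Untreated cultures were sampled on day 0, before exposure, and on days 5, 10 and 15, with 3 libraries a day. Cultures with 1 mM Ni, given as nickel sulfate, gave 3, 3 and 2 libraries on days 5, 10 and 15, and those with 3 mM Ni 3 on each of these days. Replicates are described as biologically independent, and each library carries a culture label, such as C3 for an untreated and 3C for a 3 mM Ni culture.

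Levels are given in CPM, the counts of a gene scaled to the size of its library, with TMM factors applied. The 29 libraries held 2602444 to 4067107 counts, and the GINS genes had 3 to 222 counts in a library, the fewest for Psf2 on day 0. Differences are log2 fold changes from edgeR, given with their standard errors, and each adjusted p is a false discovery rate (Benjamini-Hochberg) over the 4796 tested genes. A gene was called when its adjusted p was under 0.05. Untreated day 5 library C3 and untreated day 15 library C1 stood apart from the others of their groups: their root mean square log2 difference from them was 0.724 to 0.766 and 0.975 to 1.04, against 0.274 and 0.391 between the remaining libraries. Results that rest on C3 or C1 are given with and without them. At smaller distances, further libraries also lay apart from their groups. These included C4 of day 0 (0.540 and 0.545, against 0.261 between the others) and 3C of 3 mM Ni on day 5 (0.470 and 0.486, against 0.196). On day 10, 3C of 3 mM Ni was at 0.510 and 0.519, against 0.197.

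The 4 genes differed in how far their level moved over the 10 conditions. Psf2 had the widest course, with a mean of 1.66 ± 0.495 CPM (SD, n = 3) in untreated cultures of day 0 and 28.98 ± 10.1 CPM (SD, n = 3) at 3 mM Ni on day 10, a ratio of 17.4. Sld5 went from 4.84 ± 1.86 to 34.2 ± 8.38 CPM (SD, n = 3 each) between the same conditions, a ratio of 7.07. Psf3 went from 7.38 ± 2.84 to 30.1 ± 4.21 CPM (SD, n = 3 each), a ratio of 4.08. Psf1 moved little, from 23.3 ± 7.77 CPM (SD, n = 3) in untreated cultures of day 5 to 47.3 ± 8.15 CPM (SD, n = 3) at 3 mM Ni on day 10, a ratio of 2.03. By the standard deviation of the condition means on the log2 scale, Psf2 lay at percentile 99.2 of all tested genes, Sld5 at 97.4, Psf3 at 91.3 and Psf1 at 56.1.

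All 4 genes had their highest condition mean at 3 mM Ni on day 10, and Psf2, Psf3 and Sld5 their lowest on day 0. When the 10 conditions were put in order of their mean, 9 steps between neighbours arose for each gene, and at most of them the libraries overlapped. The libraries were apart at 2 steps for Psf2, from untreated day 0 to untreated day 15 and from untreated day 10 to 1 mM Ni on day 10. They were apart at 1 step for Sld5, from untreated day 0 to untreated day 15, and at 0 steps for Psf1 and Psf3.

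**Figure D1:**
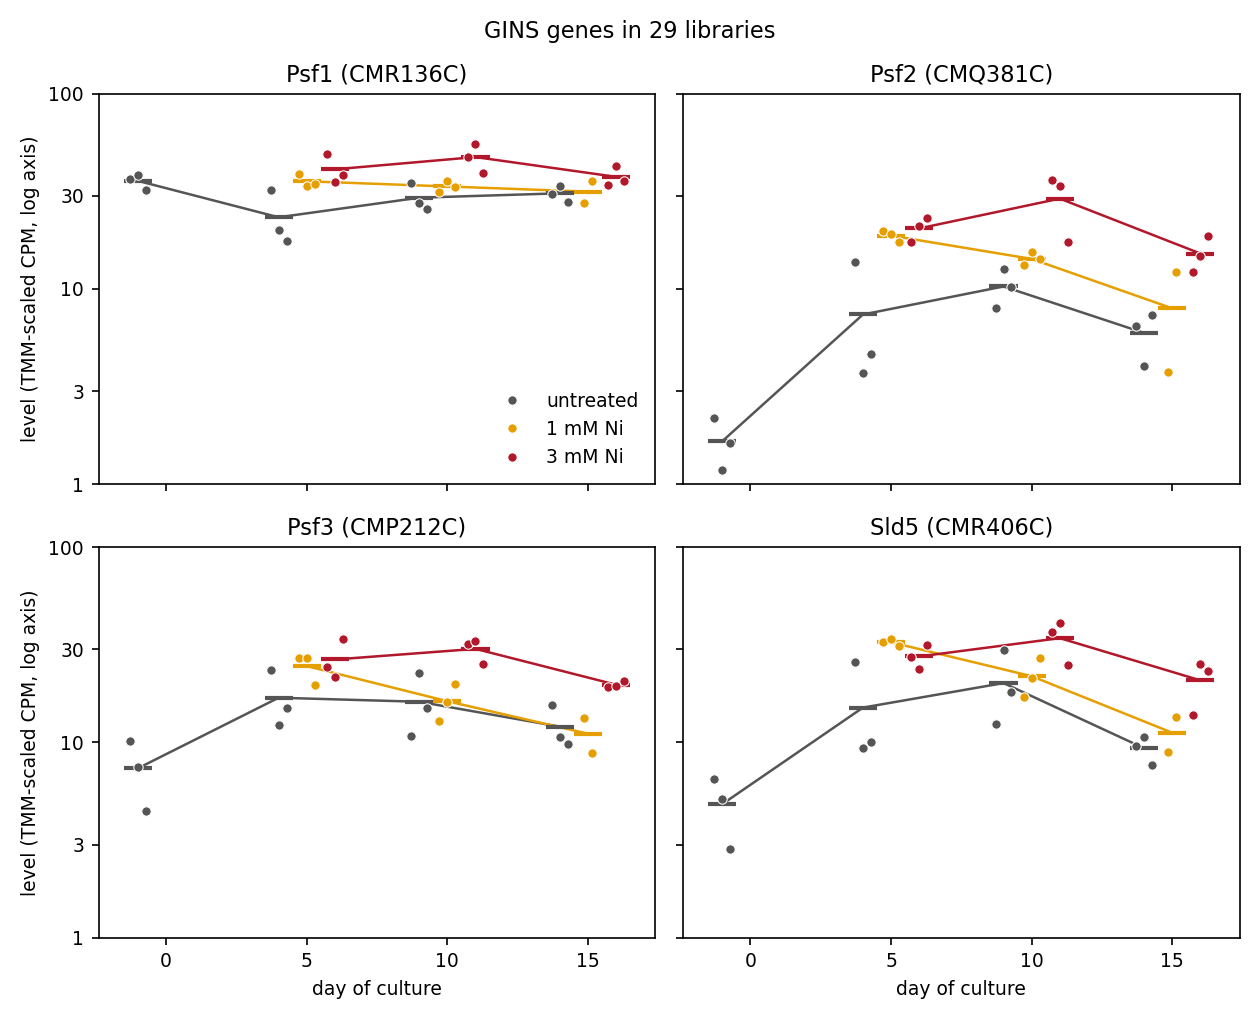
Level of each GINS gene in every library (points) in CPM on a log axis against the day of culture, with the mean of each condition (bars, joined by lines), for untreated, 1 mM Ni and 3 mM Ni cultures. Psf2 has means of 1.66 CPM on day 0 and 28.98 CPM at 3 mM Ni on day 10, whereas Psf1 stays between 17.5 and 55.3 CPM in all 29 libraries.

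Levels per length can be compared between the genes. On day 0, Psf1 stood at 55.9 CPM per kb of coding sequence, Sld5 at 6.92, Psf3 at 4.58 and Psf2 at 2.65 CPM per kb. At 3 mM Ni on day 10 these levels were 74.0 CPM per kb for Psf1, 48.9 for Sld5, 46.2 for Psf2 and 18.7 for Psf3. Transcripts of Psf2 were thus far below those of Psf1 on day 0. The log2 ratio of Psf2 to Psf1 was taken from log2 CPM with a prior count of 2, which makes it less extreme where counts are as few as on day 0. This ratio was -4.01 ± 0.371 (SD, n = 3) on day 0 and -0.75 ± 0.371 (SD, n = 3) at 3 mM Ni on day 10. No library of another condition came near the day 0 libraries, whose highest ratio was -3.74 against a lowest of -2.88 in the rest. In untreated cultures of days 5, 10 and 15 this ratio was already -1.74, -1.47 and -2.29, and at 1 mM Ni on day 15 it was -2.09. All 4 genes remained among the genes of low level, between percentiles 1.29 and 16.6 of all tested genes by mean CPM.

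The untreated cultures show how these genes changed with time in culture without Ni. Psf2, the subunit with the lowest day 0 level, read 2.17, 1.19 and 1.63 CPM on day 0, from 6, 3 and 4 counts. It read 13.8, 3.73 and 4.65 CPM on day 5, 7.99, 12.7 and 10.2 CPM on day 10, and 6.43, 4.04 and 7.38 CPM on day 15. Every later untreated library was above every day 0 library, and the largest of the day 5 values was that of C3. The log2 fold change from day 0 was 2.13 ± 0.533 (SE; adjusted p = 0.00314) on day 5, 2.59 ± 0.512 (adjusted p = 0.000410) on day 10 and 1.80 ± 0.545 (adjusted p = 0.0131) on day 15. As day 0 held 13 Psf2 counts in all, the ratio of summed counts, scaled to library size, was 4.48 with an exact 95% interval from 2.44 to 8.88 on day 5, and 6.05 from 3.40 to 11.7 on day 10, which covers counting error only. Without C3 the day 5 difference of Psf2 was 1.31 (adjusted p = 0.0475), and without day 0 library C2 that of day 15 was 1.61 (adjusted p = 0.0548).

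Sld5, first found in budding yeast by its genetic interaction with the replication factor Dpb11, had a like course. It read 6.52, 5.14 and 2.85 CPM on day 0, 25.9, 9.32 and 10.0 CPM on day 5, 12.5, 29.7 and 18.2 CPM on day 10, and 9.64, 10.7 and 7.69 CPM on day 15. All 9 later libraries were above the highest of day 0. Its log2 fold change was 1.63 ± 0.417 (SE; adjusted p = 0.00372) on day 5, 2.03 ± 0.406 (adjusted p = 0.000456) on day 10 and 0.93 ± 0.433 (adjusted p = 0.0967) on day 15. Without C3 the day 5 difference of Sld5 was 0.98 (adjusted p = 0.0525).

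Psf3, which like Psf1 and Psf2 was found in yeast as a partner of Sld5, had smaller differences. It read 10.1, 7.51 and 4.48 CPM on day 0, 23.5, 12.3 and 15.0 CPM on day 5, 10.7, 22.7 and 15.0 CPM on day 10, and 15.6, 10.7 and 9.84 CPM on day 15. The day 5 and day 10 libraries were above those of day 0, by a small margin for the lowest of day 10, and those of day 15 overlapped with them. Its log2 fold change was 1.19 ± 0.329 (SE; adjusted p = 0.00645) on day 5, 1.11 ± 0.326 (adjusted p = 0.00942) on day 10 and 0.67 ± 0.337 (adjusted p = 0.122) on day 15. On day 10 the call of Psf3 was lost without C3 of day 10, at 0.79 (adjusted p = 0.0770), and without C4 of day 0, at 0.86 (adjusted p = 0.0560).

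Psf1, the subunit that contacts DNA polymerase epsilon in yeast, went the other way on day 5. It read 36.6, 38.3 and 32.1 CPM on day 0, 32.1, 20.1 and 17.5 CPM on day 5, 34.9, 27.4 and 25.6 CPM on day 10, and 30.8, 33.8 and 27.99 CPM on day 15. The day 5 libraries lay below those of day 0, C3 by less than the rounding shows, and the later days overlapped with day 0. Its log2 fold change was -0.62 ± 0.202 (SE; adjusted p = 0.0185) on day 5, -0.28 ± 0.196 (adjusted p = 0.269) on day 10 and -0.21 ± 0.198 (adjusted p = 0.427) on day 15. When libraries were left out in turn, the day 5 decrease was called in 2 of 6 fits, those without C3 (-0.92) and without day 0 library C4 (-0.68), and in the others Psf1 had an adjusted p of 0.0577 without C1 of day 0, 0.0747 without C2 of day 0, 0.0875 without C4 of day 5 and 0.126 without C5 of day 5.

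Of the 4 genes, 3 were thus higher and 1 lower on day 5 than on day 0, where 20.3% of all tested genes were higher and 19.4% lower. On day 10, 3 were higher, against 21.1% of all tested genes, and on day 15 only Psf2 was, against 19.5%. In a fit of the compared conditions alone, edgeR called 0 of the 4 on days 5 and 15 against day 0. On day 10 such a fit called Psf2 and Sld5, and the call of Psf3 was lost. Of all tested genes, such fits called 19.9% on day 5, 6.58% on day 15 and 40.6% on day 10 in either direction. Between later days of the untreated cultures 0 of the 4 genes were called. From day 5 to day 10 edgeR called 0 of all tested genes (0%) and 0 of the 4 at an unadjusted p under 0.05, limma-voom called 0 of the 4, and DESeq2 called 0 of the 3 to which it gave an adjusted p, which it did not for Psf2. With C3 left out, Psf1 (0.64, adjusted p = 0.0363) and Psf2 (1.28, adjusted p = 0.0473) were higher on day 10 than on day 5. That fit called 13.8% of all tested genes in either direction. From day 10 to day 15, where 4.69% of all genes were lower, Sld5 had the largest decrease, a log2 fold change of -1.10 ± 0.370 (SE; adjusted p = 0.0568), and it was the only 1 of the 4 with an unadjusted p under 0.05. It was called by DESeq2, and in edgeR without C1 of day 10 (-1.36, adjusted p = 0.0293). These fits called 15.5% and 10.8% of all tested genes in either direction. On this step the libraries of Psf2 and Sld5 were lower on day 15 without overlap, as were those of 12.2% of all genes. In RNA of a whole culture, more cells that hold a transcript and more transcript per cell cannot be told apart, and this holds for every difference given here.

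Ni was then compared with untreated cultures of the same day, which the comparisons of both doses share. All 4 genes had a positive log2 fold change at 3 mM Ni on each of the 3 days, and 2, 3 and 2 of the 4 were called higher on days 5, 10 and 15. Psf2 was called on all 3 days, Psf1 on days 5 and 10, Psf3 on day 10 and Sld5 on day 15. Among all tested genes, the shares called higher were 5.42% on day 5, 15% on day 10 and 5.71% on day 15. The median log2 fold change of the 4 genes was 0.84 on day 5, 0.84 on day 10 and 0.94 on day 15, against -0.04, -0.02 and -0.04 for all tested genes.

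**Figure D2:**
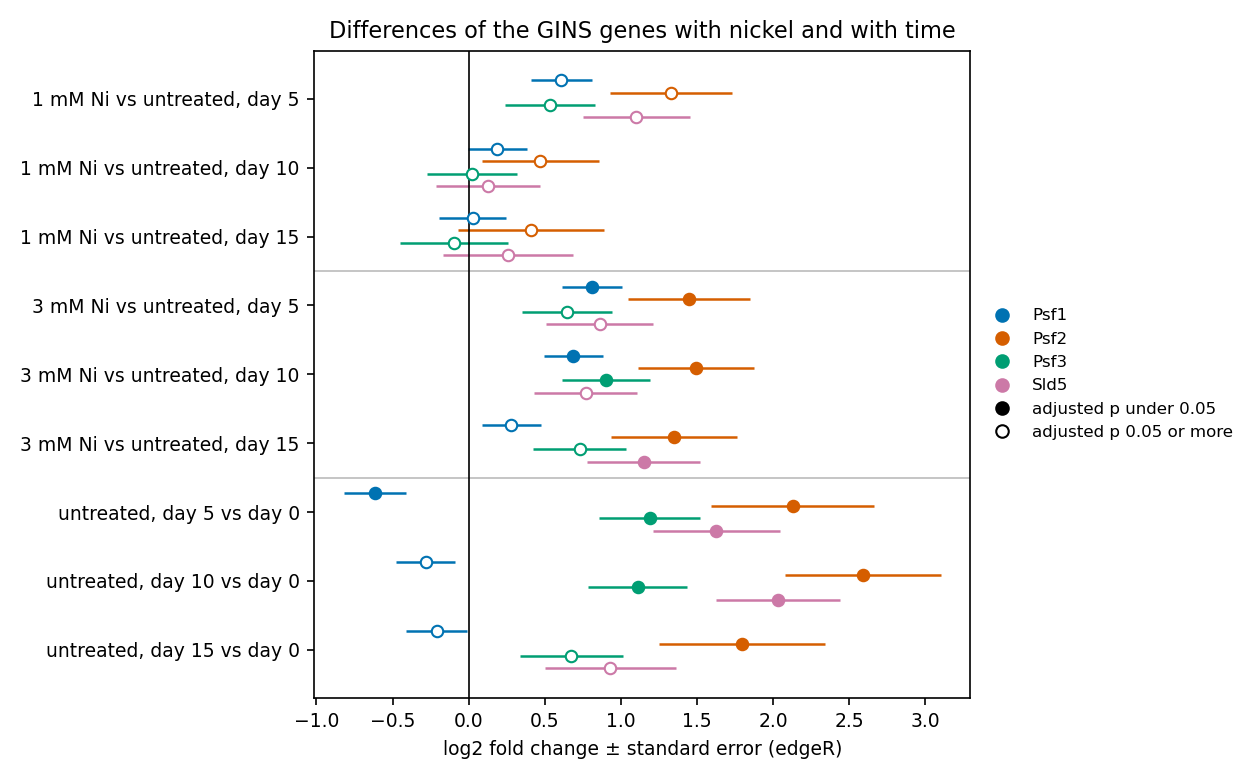
Log2 fold change (points) with its standard error (bars) from edgeR for each GINS gene in 9 comparisons, as filled points where the adjusted p was under 0.05. All 12 values at 3 mM Ni lie above 0 and 7 are filled, at 1 mM Ni none is filled, and from day 0 to day 5 of untreated cultures Psf1 lies at -0.62 while the other subunits lie between 1.19 and 2.13.

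Psf2 read 17.3, 20.9 and 23.0 CPM at 3 mM Ni on day 5, 35.9, 33.6 and 17.4 CPM on day 10, and 12.2, 14.7 and 18.6 CPM on day 15. On each day the lowest of these exceeded the highest untreated library, which was 13.8, 12.7 and 7.38 CPM, and on day 10 culture 3C was at about the level of the day 5 libraries. The log2 fold change was 1.45 ± 0.401 (SE; adjusted p = 0.0225) on day 5, 1.49 ± 0.380 (adjusted p = 0.00624) on day 10 and 1.35 ± 0.414 (adjusted p = 0.0407) on day 15. With each of the 6 libraries of day 10 left out, the difference was still called, from 1.31 to 1.76. That of day 5 was called in 2 of 6. Without C3 it was 2.27 (adjusted p = 0.000702), and the call was lost without C4 (1.14, adjusted p = 0.129), C5 (adjusted p = 0.128), 3D (1.43, adjusted p = 0.0584) or 3E (1.39, adjusted p = 0.0531). For Psf2 on day 15 the call held only without C4 (1.56, adjusted p = 0.0368), and the adjusted p without each of the others was 0.0955 (C1), 0.0938 (C3), 0.0501 (3C), 0.109 (3D) and 0.132 (3E).

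Psf1 read 49.0, 35.4 and 38.4 CPM at 3 mM Ni on day 5, 47.5, 55.3 and 39.0 CPM on day 10, and 34.0, 42.6 and 35.7 CPM on day 15. These values were above all untreated libraries of their day, on day 15 by less than 1 CPM at the nearest. The log2 fold change was 0.81 ± 0.199 (SE; adjusted p = 0.0119) on day 5, 0.69 ± 0.192 (adjusted p = 0.0104) on day 10 and 0.28 ± 0.195 (adjusted p = 0.368) on day 15. The mean of Psf1 at 3 mM Ni on day 5 was 40.9 ± 7.16 CPM (SD, n = 3) beside 35.7 ± 3.20 CPM (SD, n = 3) on day 0, and the untreated day 5 mean of 23.3 CPM was the lowest of its course. On day 5 the call of Psf1 was lost without C4 (0.72, adjusted p = 0.0669), C5 (0.64, adjusted p = 0.0908) or 3C (0.66, adjusted p = 0.0879), and on day 10 without C5 (0.60, adjusted p = 0.0562) or 3B (0.56, adjusted p = 0.0768).

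Psf3 read 24.2, 21.5 and 34.0 CPM at 3 mM Ni on day 5, 31.9, 33.1 and 25.3 CPM on day 10, and 19.1, 19.4 and 20.7 CPM on day 15. On day 5 the lowest of them was below untreated C3, and on days 10 and 15 they were apart from the untreated libraries. For Psf3 the log2 fold change was 0.65 ± 0.295 (SE; adjusted p = 0.161) on day 5, 0.90 ± 0.290 (adjusted p = 0.0225) on day 10 and 0.73 ± 0.306 (adjusted p = 0.124) on day 15. The day 10 call of Psf3 was kept without C3 (1.23, adjusted p = 0.00838) or 3C (1.01, adjusted p = 0.0167) and lost without C1 (0.69, adjusted p = 0.110), C5 (0.86, adjusted p = 0.0758), 3A (0.86, adjusted p = 0.0741) or 3B (0.83, adjusted p = 0.0891).

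Sld5 read 27.3, 23.9 and 31.4 CPM at 3 mM Ni on day 5, 36.9, 40.9 and 24.8 CPM on day 10, and 13.8, 25.3 and 23.2 CPM on day 15. Its libraries overlapped with the untreated on days 5 and 10, through untreated C3 of each day, and were apart on day 15. For Sld5 the log2 fold change was 0.86 ± 0.352 (SE; adjusted p = 0.119) on day 5, 0.77 ± 0.338 (adjusted p = 0.0907) on day 10 and 1.15 ± 0.371 (adjusted p = 0.0493) on day 15. The day 15 call of Sld5 was kept without C3 (1.27, adjusted p = 0.0486) or 3C (1.39, adjusted p = 0.0361) and lost without C1 (1.17, adjusted p = 0.120), C4 (1.02, adjusted p = 0.105), 3D (0.97, adjusted p = 0.186) or 3E (1.07, adjusted p = 0.133). On day 10 Sld5 was called without C3 (1.16, adjusted p = 0.0249) and without 3C (0.96, adjusted p = 0.0460).

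By the ranges of the libraries alone, 2 of the 4 genes were higher at 3 mM Ni without overlap on day 5, 3 on day 10 and 4 on day 15, where 14.6%, 22.7% and 14% of all tested genes were. At an unadjusted p under 0.05, 4, 4 and 3 of the 4 genes were higher on the 3 days, and 1291, 1912 and 1295 of the 4796 tested genes differed in either direction. The day 5 count turned on single untreated libraries: without C3 all 4 genes were called, with log2 fold changes of 1.12 for Psf1, 2.27 for Psf2, 0.96 for Psf3 and 1.51 for Sld5, and without C4 or without C5 0 were called. The share of all tested genes called in either direction moved with it, from 10.2% with all libraries to 24.1% without C3, 4.46% without C4 and 3.84% without C5. C3 held more transcript of each subunit than the other untreated day 5 libraries, 32.1 against 20.1 and 17.5 CPM for Psf1 and 25.9 against 9.32 and 10.0 CPM for Sld5. In fits restricted to the conditions compared, edgeR called 0 of the 4 genes on days 5 and 15 and 3 on day 10, and limma-voom called 0 on day 15. The restricted fits called 2.56% of all tested genes on day 5, 32.1% on day 10 and 0.276% on day 15, and limma-voom 7.05% on day 15. The share of counts on chloroplast genes also differed between untreated and 3 mM Ni libraries, with 3.84% to 5.75% against 2.79% to 2.95% on day 5 and 3.77% to 4.73% against 2.91% to 3.33% on day 10, whereas on day 15 the ranges of 2.27% to 6.82% and 2.65% to 3.15% overlapped. Its part in the differences of GINS was not tested beyond the fit of nuclear genes. A fit of nuclear genes alone called 2, 3 and 2 of the 4. The study named the GINS genes for their change in these libraries, so their counts are no independent evidence of direction.

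At 1 mM Ni, edgeR called 0 of the 4 genes on days 5, 10 and 15, where 0.417%, 0.125% and 0% of all tested genes were called higher. On day 5 the GINS genes were nevertheless near the threshold: Psf1, Psf2 and Sld5 had an unadjusted p under 0.05 and libraries above the untreated without overlap, as did 12.7% of all tested genes by their ranges. Psf2 read 19.7, 19.0 and 17.4 CPM at 1 mM Ni on day 5, a log2 fold change of 1.33 ± 0.401 (SE; adjusted p = 0.0948). Sld5 read 32.8, 33.8 and 31.1 CPM, 1.10 ± 0.351 (adjusted p = 0.108), and with an SD of 1.37 CPM these libraries were closer to each other than those of any other condition of this gene. Psf1 read 38.6, 33.5 and 34.6 CPM, 0.61 ± 0.199 (adjusted p = 0.112), and Psf3 27.0, 27.0 and 19.7 CPM, 0.53 ± 0.295 (adjusted p = 0.276). DESeq2 called Psf2 and Sld5 here, and 4.32% of all tested genes in either direction. Without C3 edgeR called Psf1 (0.92, adjusted p = 0.00234), Psf2 (2.15, adjusted p = 0.00118) and Sld5 (1.75, adjusted p = 0.00164), and Psf3 was at 0.84 (adjusted p = 0.0521). In that fit 29.7% of all tested genes were called in either direction, against 0.48% with all libraries.

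On day 10 the 1 mM Ni libraries read 31.2, 35.8 and 33.3 CPM for Psf1, 13.2, 15.4 and 14.1 CPM for Psf2, 12.9, 16.0 and 19.9 CPM for Psf3, and 17.0, 21.4 and 27.1 CPM for Sld5. The log2 fold changes lay between 0.02 (Psf3) and 0.47 (Psf2), and the adjusted p between 0.778 and 0.996. On day 15 the 2 libraries read 27.5 and 35.5 CPM for Psf1, 3.76 and 12.1 CPM for Psf2, 13.3 and 8.86 CPM for Psf3, and 8.96 and 13.5 CPM for Sld5. Culture 1C held far less Psf2 than culture 1E, and the log2 fold changes lay between -0.09 (Psf3) and 0.41 (Psf2) with adjusted p of 0.801 or more. On both days 0 of the 4 genes had an unadjusted p under 0.05, and DESeq2 and limma-voom called 0 of them.

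The doses were also set against each other. From 1 to 3 mM Ni, 0 of the 4 genes were called on days 5, 10 and 15, against 0.0417%, 5% and 0% of tested genes called higher. On day 5 the log2 differences between the doses ran from -0.24 ± 0.334 (Sld5, SE) to 0.20 ± 0.192 (Psf1), with 0 of 4 at an unadjusted p under 0.05. On day 10 the 3 mM Ni libraries were higher by 0.50 ± 0.191 for Psf1 (adjusted p = 0.0968), 1.02 ± 0.371 for Psf2 (adjusted p = 0.0826), 0.88 ± 0.290 for Psf3 (adjusted p = 0.0578) and 0.64 ± 0.336 for Sld5 (adjusted p = 0.226). The libraries of Psf1, Psf2 and Psf3 were higher without overlap, as were those of 17.7% of all tested genes, and these 3 had an unadjusted p under 0.05. Culture 3C, the lowest of its group for each subunit, decided this count: without it Psf1 (0.62, adjusted p = 0.0376), Psf2 (1.28, adjusted p = 0.0237) and Psf3 (0.99, adjusted p = 0.0337) were called. The share of all tested genes called in either direction also moved, from 8.55% with all libraries to 18.3% without 3C. DESeq2 called 2 of the 4 on day 10 (Psf2 and Psf3) and limma-voom 1. Of all tested genes, they called 13.1% and 9.57% in either direction. On day 15 the differences were 0.94 ± 0.453 for Psf2, 0.82 ± 0.345 for Psf3 and 0.89 ± 0.410 for Sld5, each without overlap (as for 12.7% of genes) and with an unadjusted p under 0.05, but with adjusted p from 0.974 to 0.999. On days 5 and 15 DESeq2 and limma-voom called 0 of the 4. Under other settings, the day 10 difference of Psf3 was called in 7 of 9 (0.86 to 0.90), unlike in the main fit. That of Psf1 was called in 1 of 9, of Psf2 in 2 of 8 and of Sld5 in 0 of 8.

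Within a dose, 0 of the 4 genes were called between successive days by edgeR, DESeq2 or limma-voom. At 1 mM Ni the log2 differences were negative for all 4 genes from day 5 to 10 and from day 10 to 15, down to -0.97 ± 0.410 (SE) for Sld5 on the second step, and edgeR called 0% of all genes on both. At an unadjusted p under 0.05 there were 0 and 1 of the 4. In the 3 mM Ni cultures they were 0.18 to 0.50 from day 5 to 10, where edgeR called 0% of all genes, DESeq2 37 genes (0.771%) and limma-voom 1, and 0 of the 4 had an unadjusted p under 0.05 in edgeR. From day 10 to 15 they were -0.34 for Psf1, -0.94 for Psf2, -0.61 for Psf3 and -0.72 for Sld5, the last 3 with an unadjusted p under 0.05 and adjusted p of 0.183 or more, against 1.36% of genes called lower. Without culture 3C of day 10, Psf2 was called lower on that step (adjusted p = 0.0422). That fit called 12.5% of all tested genes in either direction, against 1.71% with all libraries.

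That the response to 3 mM Ni differed between days was not shown by the tests. In the interaction contrasts of day 10 against 5 and of day 15 against 10, 0 of the 4 genes were called by edgeR, DESeq2 or limma-voom, and 0 had an unadjusted p under 0.05 in edgeR. Of all tested genes edgeR called 0% in either contrast, with 254 and 1058 at an unadjusted p under 0.05, limma-voom called 0, and DESeq2 called 4 (0.0834%) and 150 (3.13%). The differences of the response from day 5 to 10 were -0.12 ± 0.275 for Psf1, 0.04 ± 0.567 for Psf2, 0.26 ± 0.413 for Psf3 and -0.09 ± 0.485 for Sld5 (SE). From day 10 to 15 they were -0.41 ± 0.273 for Psf1, -0.14 ± 0.571 for Psf2, -0.17 ± 0.422 for Psf3 and 0.38 ± 0.499 for Sld5. Given these errors, the absence of a call for Psf1 and Psf3 on day 15 does not show that their response had ended.

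The GINS genes were set beside 31 other nuclear replication genes, found by words of their descriptions in the deposited table and by the loci the study names. They included CDC45 (*CMP303C*), MCM2 (*CMD025C*, named MCM1 in the study's text), MCM4 (*CMP356C*), MCM5 (*CMF173C*), MCM6 (*CMJ261C*), MCM7 (*CMR234C*) and *CMH264C*, a further gene of the MCM2/3/5 family whose number the table does not give. These 7 encode the partners of GINS in the replicative helicase. Of the 7, edgeR called 7 higher on day 5 than on day 0 (median log2 fold change 1.84) and 7 on day 10 (2.58), and 6 lower on day 15 than on day 10 (-2.02). Of all 31 genes, 16 were higher and 2 lower on day 5 (median 1.01), 20 higher and 2 lower on day 10 (1.28), and 1 higher and 17 lower from day 10 to 15 (-1.10). Without C3, 1 of the 7 and 8 of the 31 were called higher on day 5, and without C1 of day 15, 0 of the 7 and 0 of the 31 were called lower from day 10 to 15, where 6 and 17 had an unadjusted p under 0.05. Of all tested genes, 46.8% and 0.0417% were called in either direction in these fits, against 39.7% and 10.5% with all libraries. The counts for day 10 against day 0 were 7 and 20 without C3.

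Under 3 mM Ni edgeR called 0 of the 7 helicase partners on day 5 (median log2 fold change 0.86), 0 on day 10 (0.26) and 4 on day 15 (1.92), with 2, 0 and 7 at an unadjusted p under 0.05. DESeq2 called 0, 0 and 6 of them and limma-voom 1, 0 and 3. As for GINS, the counts turned on single untreated libraries: on day 5, 6 of the 7 were called without C3, and on day 15, 0 were called without C1 and 6 of the 7 had an unadjusted p under 0.05. The shares of all tested genes called in either direction were 24.1% and 3.05% in these fits, against 10.2% and 10.3% with all libraries. MCM2 (*CMD025C*) read 423, 281 and 288 CPM at 3 mM Ni on day 5, where untreated C3 read 379 CPM and the other untreated libraries 54.8 and 112 CPM. On day 15 *CMD025C* read 129, 375 and 401 CPM at 3 mM Ni, where untreated C1 read 19.3 CPM and the others 77.1 and 98.7 CPM. C3 was thus far above and C1 far below the other untreated libraries of its day for this gene.

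On day 10 neither of these libraries enters the difference, although 3C of 3 mM Ni, which also lay apart from its group, does. Here the median log2 fold change was 0.26 for these 7 and 0.84 for the 4 GINS genes. MCM2 (*CMD025C*) read 334, 336 and 452 CPM at 3 mM Ni and 218, 485 and 282 CPM in untreated cultures, a log2 fold change of 0.19 ± 0.575 (SE), MCM5 (*CMF173C*) was at 0.26 ± 0.449 and CDC45 (*CMP303C*) at -0.11 ± 0.178, while 3 of the 4 GINS genes were called. On day 15 MCM2 was at 2.19 ± 0.611 (SE; adjusted p = 0.0258), MCM6 at 2.18 ± 0.665 (adjusted p = 0.0398), MCM5 at 2.10 ± 0.494 (adjusted p = 0.0137) and MCM7 at 1.86 ± 0.453 (adjusted p = 0.0160), all of which lost the call without C1. CDC45 was at 0.47 ± 0.181 (adjusted p = 0.0928), MCM4 at 1.61 ± 0.526 (adjusted p = 0.0518) and *CMH264C* at 1.92 ± 0.642 (adjusted p = 0.0563). The response to 3 mM Ni on day 15 against day 10 was called in 0 of the 7 by edgeR, DESeq2 and limma-voom, with 4, 5 and 4 at an unadjusted p under 0.05. Without C1 edgeR again called 0, and only 1 of the 7 had an unadjusted p under 0.05. The median of this contrast in edgeR was 0.97 without C1, against 1.44 with all libraries. Whether the response of GINS differed from that of the MCM genes was not tested.

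**Figure D3:**
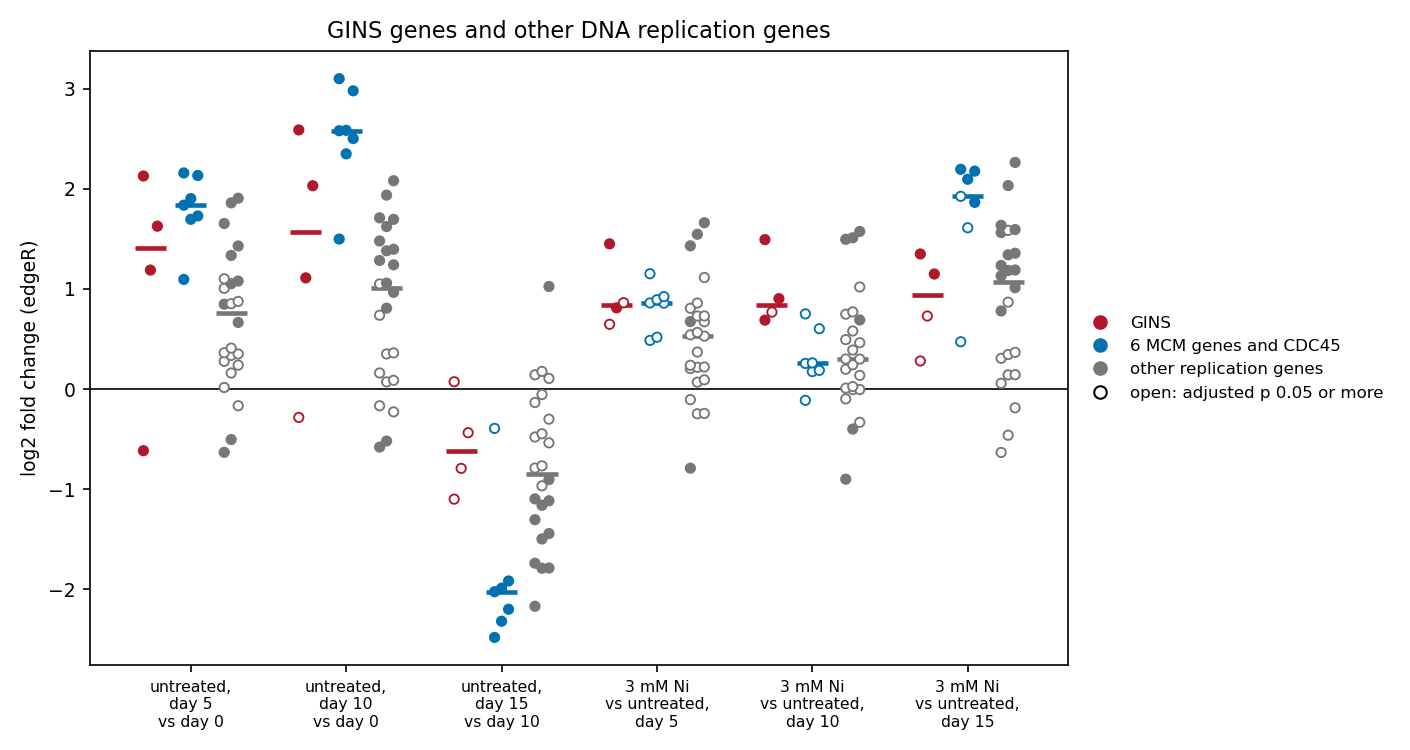
Log2 fold change from edgeR of the GINS genes, of the 6 MCM genes with CDC45, and of the other replication genes in 6 comparisons (points, filled where the adjusted p was under 0.05, with a bar at the median of each set). At 3 mM Ni the median of the MCM genes and CDC45 is 0.26 on day 10 and 1.92 on day 15, while those of GINS are 0.84 and 0.94.

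Of the 31 genes, 4 were higher and 1 lower at 3 mM Ni on day 5 (median 0.57), 4 higher and 2 lower on day 10 (0.26) and 17 higher and 0 lower on day 15 (1.19). Among all tested genes, the shares called higher on these days were 5.42%, 15% and 5.71%, so that the 4 higher genes of day 10 were no larger a share than the background. Without C3 17 were higher on day 5, where 24.1% of all tested genes were called in either direction, and without C1 4 were higher on day 15, where 3.05% were. Besides the helicase partners, the largest changes on day 15 were those of MCM9 (*CMO137C*), whose human counterpart acts in DNA repair (2.26 ± 0.389, SE; adjusted p = 0.00165), ORC2 (*CMS058C*), a subunit of the complex that marks replication origins (2.03 ± 0.592, adjusted p = 0.0324), and PCNA (*CMS101C*), the sliding clamp of DNA polymerases (1.64 ± 0.481, adjusted p = 0.0337). At 1 mM Ni edgeR called 1 of the 31 higher on day 5 and 0 on days 10 and 15, with 17, 0 and 10 at an unadjusted p under 0.05. DESeq2 called 2, 0 and 0 and limma-voom 1, 0 and 0, and without C3 edgeR called 17 higher on day 5. Without C1 edgeR called 0 on day 15, with 3 of the 31 at an unadjusted p under 0.05. Several of these genes, too, were named by the study for their change in the same libraries.

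The 4 subunits were also compared with each other library by library, by Pearson correlation of log2 CPM over the 29 libraries. These points share depth, culture conditions and the large difference of day 0, so the values are descriptions. Psf2 and Sld5 correlated at r = 0.936, Psf3 and Sld5 at 0.920 and Psf2 and Psf3 at 0.855. Psf1 correlated less with each, at 0.483 with Psf2, 0.441 with Sld5 and 0.380 with Psf3. With the mean of the other 3 subunits, Sld5 correlated at 0.905 (place 10 of 4793 genes), Psf2 at 0.893 (place 15), Psf3 at 0.831 (place 92) and Psf1 at 0.449 (place 686), where the median gene was within 0.03 of 0. Within conditions, that is for deviations from the condition means, r was 0.886 for Sld5 (place 2), 0.630 for Psf2 (place 192), 0.532 for Psf3 (place 536) and 0.494 for Psf1 (place 398). For Psf1 the value within conditions was thus close to that of Psf3, whereas over all libraries it was the lowest of the 4.

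**Figure D4:**
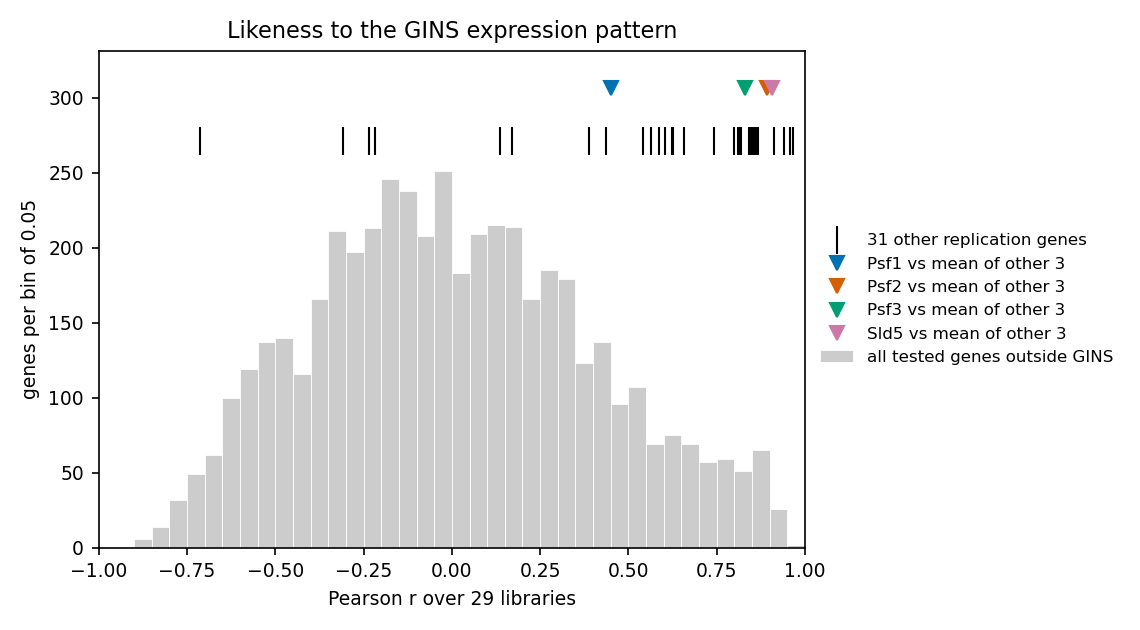
Pearson r over the 29 libraries between each tested gene outside GINS and the mean GINS pattern (bars, genes per bin of 0.05), with the 31 other replication genes as black ticks and each GINS gene, against the mean of the other 3, as a triangle. The replication genes have a median of 0.741 against -0.02 for all genes, and Psf1 at 0.449 stands apart from Psf3, Psf2 and Sld5 at 0.831 to 0.905.

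The genes most like the mean of the 4 standardised GINS genes were ranked among 4792 tested genes. The first 5 were MCM8 (*CMT087C*, r = 0.966), *CMQ183C*, described as similar to replication factor C (0.957), *CMN066C* without description (0.940), MCM9 (*CMO137C*, 0.940) and *CMN205C* without description (0.935). MCM8 and MCM9 are relatives of the helicase MCM genes that are known in animals for DNA repair by recombination. Among the 31 replication genes, 4 were in the first 50 places and 9 in the first 100, and their median r was 0.741 against -0.02 for all genes. The lowest was *CMT350C*, a subunit of DNA polymerase delta, at -0.713 (place 4706). MCM7 was the nearest of the helicase partners at 0.912 (place 18) and CDC45 the farthest at 0.626 (place 367).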

How the data were processed

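Poly(A)-selected RNA of *C. merolae* cultures was sequenced as 29 libraries, whose culture labels recur between days. The authors trimmed the reads with Trimmomatic 0.39, mapped them with HISAT2 to ASM9120v1 of Ensembl, passed the alignments through GATK MarkDuplicates and used HTSeq-count in its reverse-strand mode. The deposited values are whole-number counts of 4984 genes, without normalization. HTSeq-count with default settings discards reads with several alignments, so copies of a gene would be under-counted.

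Groups and culture labels were read from the sample labels. Where the labels do not tie libraries to separate cultures, p-values measure the spread between these libraries only. In R 4.3.3, edgeR 4.0.16 fitted all 29 libraries (quasi-likelihood, TMM factors, 1 coefficient per condition) after the filter by expression, which left out 188 genes, and 20 comparisons were tested. Standard errors come from the log2 fold change and its F statistic. Correlations and the log2 ratio of Psf2 to Psf1 used log2 CPM with a prior count of 2. Alternatives were DESeq2 1.42.0, limma-voom 3.58.1 with and without the culture label, other filters and scaling, fewer conditions or genes in the fit, and each library left out in turn.

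All 4 GINS genes are named, and from the replication list CDC45, the MCM helicase genes, the 3 others with the largest day 15 change at 3 mM Ni, and the 5 genes most like GINS. *CMT350C* was named after its value was seen. The genes on both sides of each GINS gene were chosen by position. The list was found by words in the descriptions of the table of counts, since the RefSeq table used here holds no product names. Members and lists were chosen with earlier results of these data known. Intervals cover counting error only.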

Additional observations from a re-analysis of the deposited data

How the results depend on the processing

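For the 3 mM Ni comparisons with untreated cultures, 102 of 102 values of the 4 genes under other settings and 72 of 72 with 1 library left out were positive. At 1 mM Ni, 93 of 102 and 56 of 68 were. Over all 20 comparisons 8 of 720 and 38 of 516 values changed sign, all of differences that were not called. The filter of at least 10 counts in every library removed Psf2 and Sld5 and gives no count of the 4. DESeq2 gave no count for untreated day 10 against 5, where its adjusted p was missing for Psf2.

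The number of the 4 GINS genes called moved under other settings as follows, and the cause was not tested beyond what each setting itself changes. With only the conditions compared in the fit, which leaves fewer libraries to estimate the spread, it was 0 for 3 mM Ni on days 5 and 15 (2 and 2 in the fit of all libraries), 0 for untreated day 5 and day 15 against day 0 (4 and 1) and 1 for 3 against 1 mM Ni on day 10 (0), where nuclear genes alone also gave 1. The shares of all tested genes called in these restricted fits were 2.56%, 0.276%, 19.9%, 6.58% and 9.33%, in the same order. With untreated libraries alone the count was 2 and 0 for untreated day 5 and day 15 against day 0, where 22.7% and 16.1% of all tested genes were called. DESeq2 gave 2 at 1 mM Ni on day 5 (0), 2 for 3 against 1 mM Ni on day 10 (0) and 1 for untreated day 15 against 10 (0). It called 4.32%, 13.1% and 15.5% of all tested genes there, against 0.48%, 8.55% and 10.5% in the main fit. Without the untreated libraries C3 of day 5 and C1 of day 15, a setting chosen after seeing the data, it was 4 at 1 mM and 4 at 3 mM Ni on day 5, 3 for 3 against 1 mM Ni on day 10, 2 for untreated day 5 against 0, 3 for untreated day 10 against 5 (0) and 1 for 3 mM Ni day 15 against 10 (0). In that setting the shares of all tested genes called were 40.8% at 1 mM and 33.3% at 3 mM Ni on day 5 and 23.3% for 3 against 1 mM Ni on day 10. They were 53.9% for untreated day 5 against 0, 23.2% for untreated day 10 against 5 and 8.93% for 3 mM Ni day 15 against 10. At 3 mM Ni on day 10 the count was 3 or 4 in every setting that kept all 4 genes: Sld5 was called by limma-voom with and without the block and in the setting without both libraries, 3 of its 8, while Psf1, Psf2 and Psf3 were called in each of theirs. For untreated day 10 against 0, Psf3 was called in 8 of 11 settings and lost in the fit of only these conditions (adjusted p = 0.0605), and in those of untreated libraries alone without (0.0807) and with the culture label (0.450).

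In the same setting without both libraries, log2 differences that changed sign were those of Psf3 at 1 mM Ni on day 15 (0.14), in untreated day 10 against 5 (0.23), and in the response to 3 mM Ni between days 5 and 10 (-0.046) and days 10 and 15 (0.049), and that of Psf2 in the response between days 5 and 10 (-0.77), which limma-voom without a block put at -0.22.

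Whether a culture label that recurs between days marks the same culture is not stated by the labels. Of 18 pairs with the same label, 2 had deviations that correlated above 0.1 (from -0.498 to 0.232), against 24 of 84 pairs with different labels. Deviations from a mean of 2 or 3 libraries are tied to each other within a group, so these correlations cannot decide the question. With the culture label as a replicate block in limma-voom, the count was 0 for 3 mM Ni on day 15 and for untreated day 15 against 0 and 1 for 3 against 1 mM Ni on day 10, as without the block (0, 0 and 1). Psf1 at 1 mM Ni on day 15 became -0.00025 and Psf2 in the response between days 5 and 10 -0.22. With day and label as a fixed replicate block among the untreated libraries, the counts for days 5, 10 and 15 against day 0 were 0, 0 and 0. Hardly any gene was called in that fit: 0%, 0.0212% and 0.127% of all tested genes, against 22.7%, 23% and 16.1% without the label.

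With 1 library left out, the count of GINS genes called ranged from 0 to 3 at 1 mM Ni on day 5, from 0 to 4, 1 to 4 and 0 to 1 at 3 mM Ni on days 5, 10 and 15, from 0 to 3 for 3 against 1 mM Ni on day 10, and in untreated cultures from 0 to 1 for day 15 against 0, 0 to 2 for day 10 against 5 and 0 to 1 for day 15 against 10, and 0 to 1 for 3 mM Ni day 15 against 10. Log2 differences that changed sign in such fits ranged as follows. For Psf1 they were -0.43 to 0.045 in the response between days 5 and 10, -0.016 to 0.22 in untreated day 15 against 10, -0.17 to 0.19 at 1 mM Ni on day 15 and -0.28 to 0.079 in 1 mM Ni day 15 against 10. For Psf2 they were -0.78 to 0.36 and -0.41 to 0.067 in the responses between days 5 and 10 and days 10 and 15, and -0.65 to 1.03 at 1 mM Ni on day 15. For Psf3 they were -0.40 to 0.23 in untreated day 10 against 5, -0.054 to 0.58 and -0.50 to 0.056 in the responses, -0.18 to 0.34 and -0.43 to 0.16 at 1 mM Ni on days 10 and 15, and -0.073 to 0.24 in 3 against 1 mM Ni on day 5. For Sld5 they were -0.74 to 0.30 and -0.0099 to 0.64 in the responses, and -0.10 to 0.52 and -0.059 to 0.52 at 1 mM Ni on days 10 and 15.

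Depth limits Psf2 most, with 3 to 6 counts in a day 0 library. The 1 mM Ni group of day 15 had 2 libraries, and a fit without either rests on 1, assumed to vary like the other groups. The fits of the replication genes without C3 or C1 and with DESeq2 and limma-voom were also chosen after seeing the data.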

Other observations

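The genes next to the GINS genes on the chromosomes (RefSeq, ASM9120v1) were read in the same fit. Beside Psf1, *CMR137C*, described as similar to a developmental gene of the fly, was higher at 3 mM Ni on day 10 (log2 fold change 1.06 ± 0.281, SE; edgeR, adjusted p = 0.00773) and lower in untreated cultures on days 5 (-1.25 ± 0.284, adjusted p = 0.00151) and 10 (-1.32 ± 0.283, adjusted p = 0.000809) than on day 0. Its untreated course thus had the sign of that of Psf1 on day 5. Beside Sld5, *CMR405C*, described as similar to VPS29 of the retromer, which returns membrane proteins from endosomes, was higher at 3 mM Ni on days 10 (0.67 ± 0.251, adjusted p = 0.0477) and 15 (0.94 ± 0.268, adjusted p = 0.0280), and was not called against day 0 on days 5 and 10. The other neighbours, *CMR135C*, *CMQ380C*, *CMP210C*, *CMP214C* and *CMR407C*, were not called at 3 mM Ni on days 5, 10 and 15, and *CMQ382C* did not pass the filter. *CMP214C*, described as a thiamine-phosphate pyrophosphorylase of vitamin B1 synthesis, was higher in untreated cultures on days 5 (0.72 ± 0.202, adjusted p = 0.00720) and 10 (0.85 ± 0.200, adjusted p = 0.00180), as Psf3 was. Such calls were common: against day 0, 20.3% of all tested genes were higher and 19.4% lower on day 5, and 21.1% and 18.9% on day 10. At 3 mM Ni, 15% were called higher on day 10 and 5.71% on day 15.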
